A study of Mus musculus with 10 samples.

Results

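*Ccr2*, *Ly6c2*, *Plac8*, *Vcan*, *Fn1* and *Ace* are transcripts known from blood monocytes, and they were read here in microglia sorted from the hippocampus. The 6 genes were taken by symbol from a count table of 55453 genes, and each was present in it. The 10 libraries came from female mice of the 3xTg AD line, which carries human APP with the Swedish mutation and human MAPT P301L among its transgenes. The Thy1.2 promoter drives these transgenes and is a promoter used for expression in neurons. The mice were over 15 months old, retired breeders of a single homozygous colony. Mice of the 5 GA libraries received 0.1 mg of glatiramer acetate (GA, a mixture of random polypeptides used in multiple sclerosis) under the skin each week for about 8 weeks, with an additional injection in the first week. Those of the 5 PBS libraries received phosphate-buffered saline in place of GA. Live cells were sorted from perfused brains as CD45int CD11b+, a gate that leaves out the CD45hi CD11b+ cells among which blood monocytes are usually found. All 5 PBS libraries have titles that begin with 388 (388_1 to 388_5), whereas the GA titles begin with 394 (394_1 and 394_2) or 400 (400_1 to 400_3). The meaning of these prefixes is not given in the labels, and prefix and treatment cannot be told apart.

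Classical monocytes leave the bone marrow by way of CCR2, the receptor for the chemokines CCL2, CCL7 and CCL12, and in the mouse carry the surface protein Ly6C, which *Ly6c1* and *Ly6c2* encode. *Plac8* encodes a small cysteine-rich protein of myeloid cells, *Vcan* the matrix proteoglycan versican, and *Fn1* fibronectin, which monocytes and some macrophages secrete. *Ace* encodes angiotensin-converting enzyme, which is found on endothelium and on non-classical patrolling monocytes. None of these transcripts belongs to monocytes alone: neutrophils carry *Ly6c2*, and some macrophages of the meninges and perivascular spaces, the border macrophages, carry *Ccr2*. Resident microglia are known for very little *Ccr2* or *Ly6c2*.

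In GRCm38 with the GENCODE M21 annotation, *Ccr2* (ENSMUSG00000049103.14) lies at chr9:124101950-124113557 on the plus strand and *Ly6c2* (ENSMUSG00000022584.14) at chr15:75108158-75111970 on the minus strand. *Plac8* (ENSMUSG00000029322.12) lies at chr5:100553725-100572245, *Vcan* (ENSMUSG00000021614.16) at chr13:89655312-89742509 and *Fn1* (ENSMUSG00000026193.15) at chr1:71585520-71653200, all on the minus strand. *Ace* (ENSMUSG00000020681.14) lies at chr11:105967945-105989964 on the plus strand. All 6 are protein-coding, and their counts are of reads in exons. *Fn1* shares 292 exon bases with *Apol7d* and *Ace* shares 295 with *Gm11651*, each on the opposite strand. The strand setting of the counting is not given in the sources used here, so reads in those bases cannot be assigned to a gene.

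Reads were 100 bases long, and *Ly6c2* has a near copy from which such reads can be hard to separate. The coding sequences of *Ly6c2* and *Ly6c1* were identical at 384 of 393 bases (97.7%). Their first 90 coding bases are shown because most of the differing bases of the coding sequence fall there; the sequences are from the GENCODE M21 transcripts (GRCm38), on the coding strand, with the 6 differing bases in capitals.
Ly6c2: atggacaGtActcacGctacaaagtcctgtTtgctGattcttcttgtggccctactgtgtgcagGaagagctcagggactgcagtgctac
Ly6c1: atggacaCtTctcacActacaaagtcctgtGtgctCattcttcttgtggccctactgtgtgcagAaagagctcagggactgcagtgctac
Of 2737 possible 100-base windows in the *Ly6c2* transcripts, 159 (5.81%) also occurred in transcripts of *Ly6c1*. In the coding transcripts alone the share was 114 of 767 windows (14.9%). In these libraries *Ly6c1* had 5 reads in all and *Ly6c2* had 175, and *Ly6c1* was at 0 in 8 libraries. *Ly6c1* is the form known from brain endothelium.

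Of the *Ccr2* windows, 53 of 6709 (0.790%) also occurred in another gene. No window of *Plac8* or *Vcan* occurred in another gene.

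Library totals ran from 32332185 to 38764643 counts, and 14481 genes passed the filter on low counts. Values are given in CPM (reads of a gene per 1e+06 reads of the library), scaled by the trimmed mean of M-values (TMM). Microglial markers were high: *Cx3cr1* was at 7243 ± 510.5 CPM in PBS and 6903 ± 265 in GA (SD, n = 5), and *Csf1r* at 16777 ± 1190 and 16703 ± 823. Markers of other cell types, chosen after their values were seen, were uneven: *Cldn5* of endothelium had 9 reads over all 10 libraries, *Pdgfra* of oligodendrocyte precursors 2 and *Cd3e* of T cells 8, whereas *Pecam1* and *Flt1*, known from endothelium, had 10448 and 4242, *Cspg4* 4865 and *Pdgfrb*, known from pericytes, 1316. The 8 endothelial genes summed to between 63.4 and 76.1 CPM in PBS and between 64.6 and 75.7 CPM in GA. Library 388_4 had fewer reads of *Itgam*, which encodes CD11b, than any other library (2862, where the highest had 10695). Nothing in the labels says whether a library is of 1 mouse, so p-values measure the spread between these libraries.

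Scaled to exon length, the members stood in the order *Ccr2*, *Plac8*, *Fn1*, *Ly6c2*, *Ace* and *Vcan*. Mean levels over the 10 libraries were 4.47 ± 1.17 CPM per kilobase for *Ccr2*, 1.77 ± 0.743 for *Plac8*, 0.484 ± 0.122 for *Fn1*, 0.185 ± 0.165 for *Ly6c2*, 0.0906 ± 0.0838 for *Ace* and 0.00275 ± 0.00672 for *Vcan* (SD, n = 10). *Ccr2* was above *Plac8*, *Plac8* above *Fn1* and *Fn1* above *Ly6c2* in 10 of 10 libraries. *Ly6c2* was above *Ace* in 8 of 10, and these neighbours did not differ beyond their spread. On the same scale *Csf1r* was at 2899 CPM per kilobase.

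**Figure D1:**
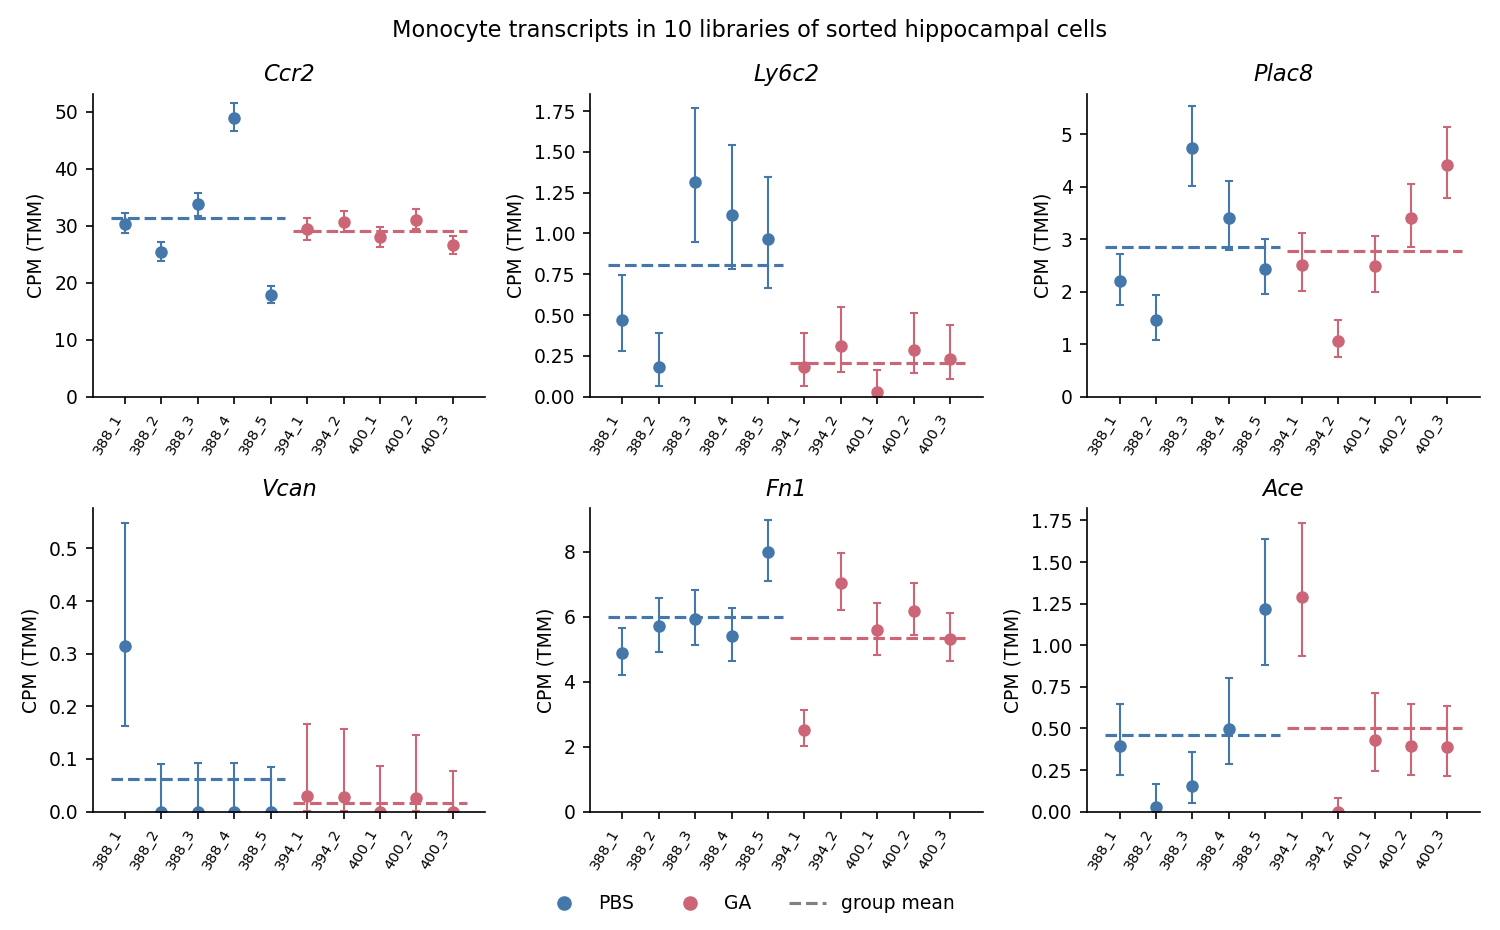
CPM (TMM-scaled) of each transcript in every library, with PBS in blue, GA in red, bars for the exact 95% Poisson interval of the count (counting error only; up to 3 reads where the count is 0) and dashed lines for group means. *Ccr2* ranged from 17.9 to 49.0 CPM among PBS libraries and from 26.6 to 31.1 among GA libraries, and *Ly6c2* was the one transcript with 4 PBS libraries above every GA library.

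To determine whether GA altered these transcripts, the quasi-likelihood F-test of edgeR was run on the 14481 genes with treatment as the one factor, followed by Benjamini-Hochberg adjustment over all of them. *Vcan* did not pass the filter, and 0 of the 5 tested members passed an adjusted p of 0.05. The background for this count was also 0%. At an unadjusted p under 0.05 there was 1 member, *Ly6c2*, where 5.75% of all genes (833) fell under that value. DESeq2 called 0.0106% of genes (2 of 18894) and limma-voom 0%, with 0 members in either. The GA and PBS libraries did not overlap for 129 genes (0.891%), with 0 members among these.

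*Ccr2* was the most abundant member, and no difference between treatments was detected. It was at 30.4, 25.5, 33.8, 49.0 and 17.9 CPM in PBS libraries 388_1 to 388_5. In the GA libraries it was at 29.4, 30.7, 28.0, 31.1 and 26.6 CPM, in the order 394_1, 394_2, 400_1, 400_2 and 400_3. The highest and the lowest library were both PBS, and every GA library lay between them. The means were 31.3 ± 11.6 CPM in PBS and 29.2 ± 1.87 in GA (SD, n = 5). The log2 fold change was -0.10 (SE 0.19), with an adjusted p of 0.970 by edgeR. Without 388_4 it was 0.12. The difference in spread between the groups was not tested.

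Chemokine genes of the cluster that holds the CCR2 ligands were also read in the sorted cells. *Ccl12*, of a CCR2 ligand, was the highest of them, at 47.5 ± 11.5 CPM in PBS and 64.8 ± 28.7 in GA (SD, n = 5), with a log2 fold change of 0.45 (SE 0.26) and an adjusted p of 0.895 by edgeR. *Ccl2* was at 3.37 ± 1.67 and 4.42 ± 1.47 CPM, *Ccl7* at 1.62 ± 1.12 and 1.94 ± 1.48, and *Ccl8*, known in mice mainly as a ligand of CCR8, at 3.12 ± 2.50 and 1.91 ± 1.48. None of the 4 chemokines passed the test in either direction. Their median log2 fold change was 0.33, beside 0.00020 over all genes tested.

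*Ly6c2* was the member with the largest difference between treatments, from few reads. PBS libraries 388_1 to 388_5 held 18, 6, 43, 36 and 34 reads of it (0.471, 0.179, 1.31, 1.12 and 0.964 CPM). GA libraries 394_1, 394_2, 400_1, 400_2 and 400_3 held 6, 11, 1, 11 and 9 (0.180, 0.309, 0.0289, 0.288 and 0.232 CPM). All PBS libraries but 388_2 were above every GA library, and 388_2 (6 reads) lay within the GA range. The mean was 0.809 ± 0.470 CPM in PBS and 0.207 ± 0.112 in GA (SD, n = 5). The log2 fold change was -1.94 (SE 0.60), with an unadjusted p of 0.00589 and an adjusted p of 0.847 by edgeR, so the difference did not pass correction over all genes. DESeq2 gave -1.96 with an adjusted p of 0.306. A two-sided exact permutation test on log2(CPM + 0.1) gave p = 0.0397 for *Ly6c2* alone, where the smallest p that 5 against 5 libraries allow is 0.00794. Without 388_2 it was 0.00794 and without 394_2 0.0476, whereas with any other library left out it ran from 0.0556 to 0.0714. In bulk libraries, fewer cells of a type and less RNA per cell cannot be told apart.

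Other Ly6 genes, most of them neighbours of *Ly6c2* on chromosome 15, had smaller log2 fold changes in the 5 that were tested, and these were not compared with that of *Ly6c2* by a test. *Ly6e*, which is widely expressed, was at 1049 ± 106 CPM in PBS and 1037 ± 75.1 in GA (SD, n = 5). *Ly6a*, which encodes the stem cell antigen Sca-1, was at 2.90 ± 0.189 and 3.35 ± 1.39 CPM, and *Ly6k* at 14.6 ± 3.09 and 10.8 ± 3.97. *Ly6i* was at 0.726 ± 0.662 and 0.524 ± 0.242 CPM and *Ly6d* at 0.531 ± 0.183 and 0.363 ± 0.145. *Ly6g*, the surface marker of neutrophils, had 110 reads in all, at 0.459 ± 0.476 CPM in PBS and 0.170 ± 0.207 in GA, and did not pass the filter. *Ly6h* had 11 reads. Of the 8 genes listed, 5 were tested and none passed in either direction, with a median log2 fold change of -0.43.

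*Plac8* had close means in the GA and PBS groups, with wide ranges in both. PBS libraries 388_1 to 388_5 were at 2.20, 1.46, 4.73, 3.41 and 2.44 CPM. GA libraries were at 2.52, 1.07, 2.48, 3.41 and 4.43 CPM in the order used above. Each group held libraries over 4 and under 2 CPM, so the ranges overlapped throughout. The means were 2.85 ± 1.26 and 2.78 ± 1.24 CPM (SD, n = 5), the log2 fold change was -0.03 (SE 0.37) and the adjusted p by edgeR was 0.996.

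Of the matrix genes, *Fn1* was detected in every library and *Vcan* was almost absent. *Fn1* was at 4.89, 5.71, 5.92, 5.39 and 7.99 CPM in PBS and at 2.52, 7.05, 5.57, 6.19 and 5.33 CPM in GA. The lowest library was 394_1 and the highest 388_5, with the others between 4.89 and 7.05 CPM. The means were 5.98 ± 1.19 and 5.33 ± 1.71 CPM (SD, n = 5), with a log2 fold change of -0.17 (SE 0.24) and an adjusted p of 0.953 by edgeR. *Vcan* had 12 reads in 388_1, 1 read each in 394_1, 394_2 and 400_2, and 0 reads in 6 libraries, where a count of 0 allows up to 3 reads, a level of up to 0.0930 CPM. In 388_1 it stood at 0.314 CPM.

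Receptors for fibronectin were abundant in the same cells. *Itgb1* was at 549 ± 43.9 CPM in PBS and 541 ± 15.4 in GA (SD, n = 5), *Itgav* at 239.5 ± 21.9 and 245.6 ± 5.27, and *Itga5* at 82.6 ± 4.17 and 83.3 ± 6.96. *Itga4*, the chain of the integrin by which monocytes adhere to endothelium, was at 2.13 ± 0.530 and 2.65 ± 0.792 CPM. *Cd44* and *Tlr2*, whose products bind matrix components and versican among them, were at 4.35 ± 2.13 and 452 ± 86.8 CPM in PBS and at 5.56 ± 1.71 and 493.2 ± 54.5 CPM in GA. *Adamts1*, which encodes a protease that cleaves versican, was at 29.1 ± 5.43 and 31.4 ± 6.91 CPM. *Adamts4*, of the same family, was at 0.280 ± 0.427 and 0.922 ± 0.519 CPM, with an unadjusted p of 0.0578 by edgeR. *Adamts5* was at 0 and *Hapln1*, whose product links versican to hyaluronan, had 1 read. Of 13 matrix partners, 10 were tested and none passed in either direction.

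*Ace* was the most variable of the tested members. PBS libraries held 15, 1, 5, 16 and 43 reads (0.393, 0.030, 0.153, 0.496 and 1.22 CPM). GA libraries held 43, 0, 15, 15 and 15 (1.29, 0, 0.433, 0.393 and 0.386 CPM). The highest and lowest libraries of each group were close to those of the other. The means were 0.458 ± 0.464 and 0.500 ± 0.475 CPM (SD, n = 5), with a log2 fold change of 0.12 (SE 0.85) and an adjusted p of 0.991 by edgeR. Most other genes of the angiotensin system were not detectable: *Ren1*, *Agtr1a*, *Agtr2*, *Mas1*, *Enpep*, *Bdkrb2* and *Mme* had 0 reads in all 10 libraries, and *Agt*, the angiotensinogen gene, had 9. *Lnpep*, an aminopeptidase that is also an endosomal protein, was at 59.95 ± 10.8 CPM in PBS and 46.0 ± 2.66 in GA, with a log2 fold change of -0.38 (SE 0.11), an unadjusted p of 0.00288 and an adjusted p of 0.847 by edgeR.

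The biological coefficient of variation that edgeR fitted, the spread between libraries of a group beyond counting error, was 0.909 for *Ace*, higher than in 99.2% of genes, and 0.581 for *Ly6c2*, higher than in 93.9%. It was 0.216 for *Ccr2*, where the trend at that abundance was 0.137. For *Ace* and *Ly6c2*, which had few reads, the trend was 0.534 and 0.533.

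The members were compared with each other over the 10 libraries by Pearson's r of log2(CPM + 0.1). The question was whether the 6 transcripts rose and fell together between libraries. Of the 15 pairs, 9 had an r above 0 and 6 below, and none had an adjusted p under 0.05 in a permutation test. *Plac8* and *Ace* had the highest r, 0.469 (permutation p = 0.170, adjusted p = 0.895), with Spearman's rho of 0.248, and an r of 0.126 without 394_2 and 0.660 without 388_3. *Fn1* and *Ace* had the lowest, -0.398 (permutation p = 0.270, adjusted p = 0.895, rho -0.285), and this rested on single libraries: it was 0.0559 without 394_1, -0.749 without 388_5 and -0.674 without both.

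*Ccr2* and *Ly6c2*, the pair that defines classical monocytes, had an r of 0.233 (permutation p = 0.540, adjusted p = 0.895) and a rho of 0.539. That value rested on single libraries. Without 388_4, which had the most *Ccr2*, r was -0.13, and without 388_5, which had the least *Ccr2* but the third most *Ly6c2*, it was 0.74. Without both it was 0.715. As deviations from the group means the 10 libraries gave an r of 0.285 (exact permutation p = 0.537).

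**Figure D2:**
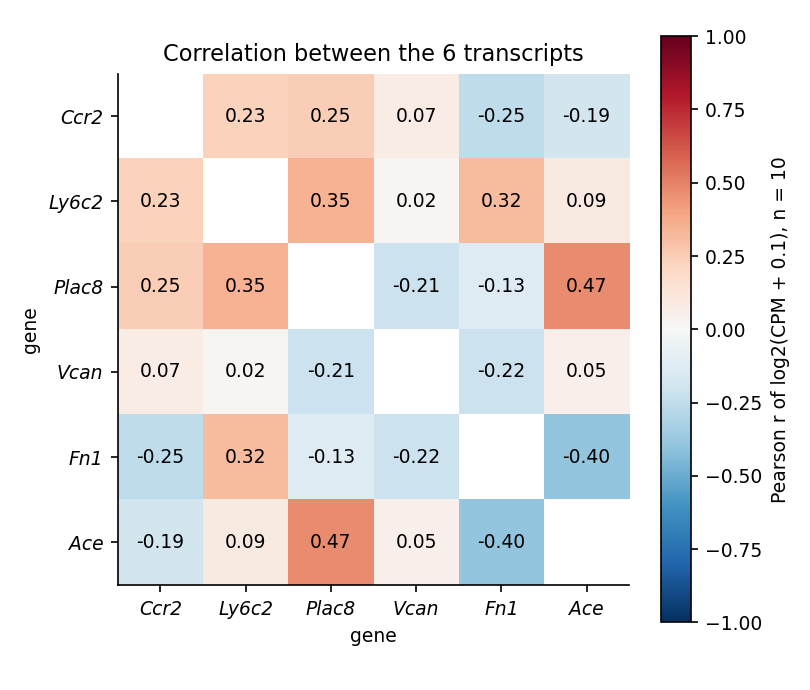
Pearson's r between each pair of the 6 transcripts over 10 libraries, on log2(CPM + 0.1), with red for positive and blue for negative r and each gene against itself left blank. The values run from -0.40 (*Fn1* and *Ace*) to 0.47 (*Plac8* and *Ace*), and none passed a permutation test with adjustment over the 15 pairs.

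The members were then set against the summed CPM of 12 lists of marker genes of blood, border and brain cell types, several of which the sort on CD45 and CD11b should leave out, neutrophils among them. This gave 72 relations, of which 0 had an adjusted p under 0.05 in a permutation test. The relations of *Ly6c2* with neutrophil genes and of *Ccr2* with border macrophage genes had the smallest p-values over all 10 libraries, 0.0504 and 0.0572 after adjustment.

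The r of *Ly6c2* with the sum of 14 neutrophil genes was 0.888 (permutation p = 0.000700, adjusted p = 0.0504) and its rho was 0.903. The sum was 166, 40.3, 462, 293 and 384 CPM in PBS and 43.7, 177, 12.05, 19.0 and 109 CPM in GA. The 3 libraries with the most neutrophil transcripts, 388_3, 388_5 and 388_4, were also the 3 with the most *Ly6c2*, and 400_1 was lowest in both. Within the treatment groups r was 0.810 (exact permutation p = 0.0044, adjusted p = 0.115), without the 2 libraries farthest from the median it was 0.780, and with any library left out it lay between 0.830 and 0.951. All 10 of the neutrophil genes that passed the filter had an r over 0.6 with *Ly6c2*, where 4.99% of all genes did, with a median of 0.832 beside -0.02 over all genes.

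The genes most like *Ly6c2* over the 10 libraries were *Tnrc6c* (r = 0.931), *S100a9* (0.923), *Ifitm6* (0.920), *S100a8* (0.909) and *Lrrc28* (0.903). *S100a8* and *S100a9* encode calprotectin, the main cytosolic protein of neutrophils, which classical monocytes also carry. An r over 0.8 with *Ly6c2* was seen in 0.414% of genes. *Chil3*, a gene of monocytes and neutrophils alike, had an r of 0.892 and *Camp*, of neutrophil specific granules, 0.880. *Lyz2*, shared by monocytes, macrophages and microglia, had 0.310.

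The neutrophil sum had a lower mean in GA, 72.3 ± 70.2 CPM against 269 ± 169 in PBS (SD, n = 5), with overlap: 394_2 lay above 388_1 and 388_2. A two-sided exact permutation test of the sum gave p = 0.0794. All 10 tested genes of the list had a negative log2 fold change, 9 of them at an unadjusted p under 0.05 by edgeR, where 5.75% of all genes were, and 0 passed after adjustment. Their median log2 fold change was -1.83. *S100a9* was at 53.7 ± 35.2 CPM in PBS and 15.1 ± 13.96 in GA (SD, n = 5), with a log2 fold change of -1.83 (SE 0.65) and an adjusted p of 0.847 by edgeR. *Ngp* was at 69.6 ± 42.7 and 16.2 ± 16.2 CPM and *Camp* at 17.1 ± 10.7 and 3.14 ± 2.82. *Mpo* and *Elane*, chosen after their values were seen, which mark the granules made at the promyelocyte stage, had 5 and 16 reads in all. Taken as a share of the neutrophil sum, *Ly6c2* was at 0.285%, 0.444%, 0.284%, 0.3805% and 0.251% in PBS and at 0.412%, 0.174%, 0.240%, 1.52% and 0.211% in GA. No difference in this share was detected between treatments (two-sided exact permutation p = 0.897, log2 difference 0.14). The highest share was that of 400_2, with 11 reads of *Ly6c2* and few neutrophil transcripts. Without 400_2 the log2 difference was -0.39, and it ran from -0.39 to 0.39 with any library left out. The part of neutrophil RNA in the *Ly6c2* difference was not tested.

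Of the 13 tested genes of the classical monocyte list, 3 had an unadjusted p under 0.05 by edgeR (5.75% of all genes did), *Chil3* and *Ifitm6* among them, all lower in GA, and 0 passed after adjustment. *Chil3* was at 18.7 ± 13.7 CPM in PBS and 3.97 ± 4.30 in GA (SD, n = 5). *Thbs1* was at 59.1 ± 9.90 and 60.4 ± 14.5 CPM. The median log2 fold change of the list was -0.48. Of these genes 6 had an r over 0.6 with *Ly6c2*, where 4.99% of all genes did, and 0 with *Ccr2*, where 7.76% did. The difference between these counts was not tested. With the classical monocyte sum, mostly *Lyz2*, r was 0.398 for *Ly6c2* (permutation p = 0.252, adjusted p = 0.745). For *Ccr2* it was 0.322 (permutation p = 0.376, adjusted p = 0.874). With a library left out, r ran from 0.242 to 0.583 for *Ly6c2*. For *Ccr2* it was -0.0282 without 388_4 and 0.632 without 388_5.

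The r of *Ccr2* with the sum of 12 border macrophage genes was 0.841 (permutation p = 0.0016, adjusted p = 0.0572) and its rho was 0.879. The sum was 546, 444, 575, 741 and 358 CPM in PBS and 417, 613, 511, 691 and 529 CPM in GA. Library 388_4 was highest and 388_5 lowest in both, and without these 2 libraries, the farthest from the median, r was 0.583. With any single library left out it lay between 0.730 and 0.908, and within treatment groups it was 0.852 (exact permutation p = 0.0048, adjusted p = 0.115). Of the 12 genes, 9 had an r over 0.6 with *Ccr2*, with a median of 0.706 beside 0.02 over all genes.

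*Stab1*, which microglia also transcribe, made up most of the sum, and without it r was 0.770, and 0.607 when 388_4 was left out as well. *Mrc1*, the mannose receptor gene, was at 41.1 ± 27.8 CPM in PBS and 37.7 ± 19.0 in GA (SD, n = 5) and had an r of 0.772 with *Ccr2*. *F13a1*, of the coagulation factor that such macrophages make, was at 35.7 ± 27.9 and 31.3 ± 19.1 CPM with an r of 0.738. *Cd209f*, *Cd163* and *Lyve1*, chosen after their values were seen, had r of 0.825, 0.775 and 0.772. Border macrophage genes showed no detected difference between treatments: 0 of 12 genes had an unadjusted p under 0.05 by edgeR, 0 passed after adjustment, and the median log2 fold change was -0.24.

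For *Ccr2* with neutrophil genes and *Ly6c2* with those of border macrophages r was nearer 0, and both values rested on single libraries. The r of *Ccr2* with the neutrophil sum was 0.0942 (permutation p = 0.804, adjusted p = 0.957), and that of *Ly6c2* with the border macrophage sum was 0.186 (permutation p = 0.603, adjusted p = 0.957). Without 388_4 the r of *Ccr2* with the neutrophil sum was -0.191, without 388_5 it was 0.539, and without both 0.481. That of *Ly6c2* with the border macrophage sum was -0.0536 without 388_4, 0.570 without 388_5 and 0.374 without *Stab1*. With the dendritic cell sum *Ccr2* had an r of 0.738 (permutation p = 0.0122, adjusted p = 0.202), and within treatment groups of 0.737 (exact permutation p = 0.000972, adjusted p = 0.07), the smallest within-group p of the 72 relations. In this list *Cd209a* had 0.609, and the sum was highest in 400_2 and 388_4. Not every gene of the list shared it: *Xcr1* and *Itgae*, chosen after their values were seen, had r of -0.648 and -0.375 with *Ccr2*, and the median of the list was 0.242. With the non-classical monocyte sum its r was 0.756, and 0.448 without 388_4. The difference between these correlations was not tested.

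**Figure D3:**
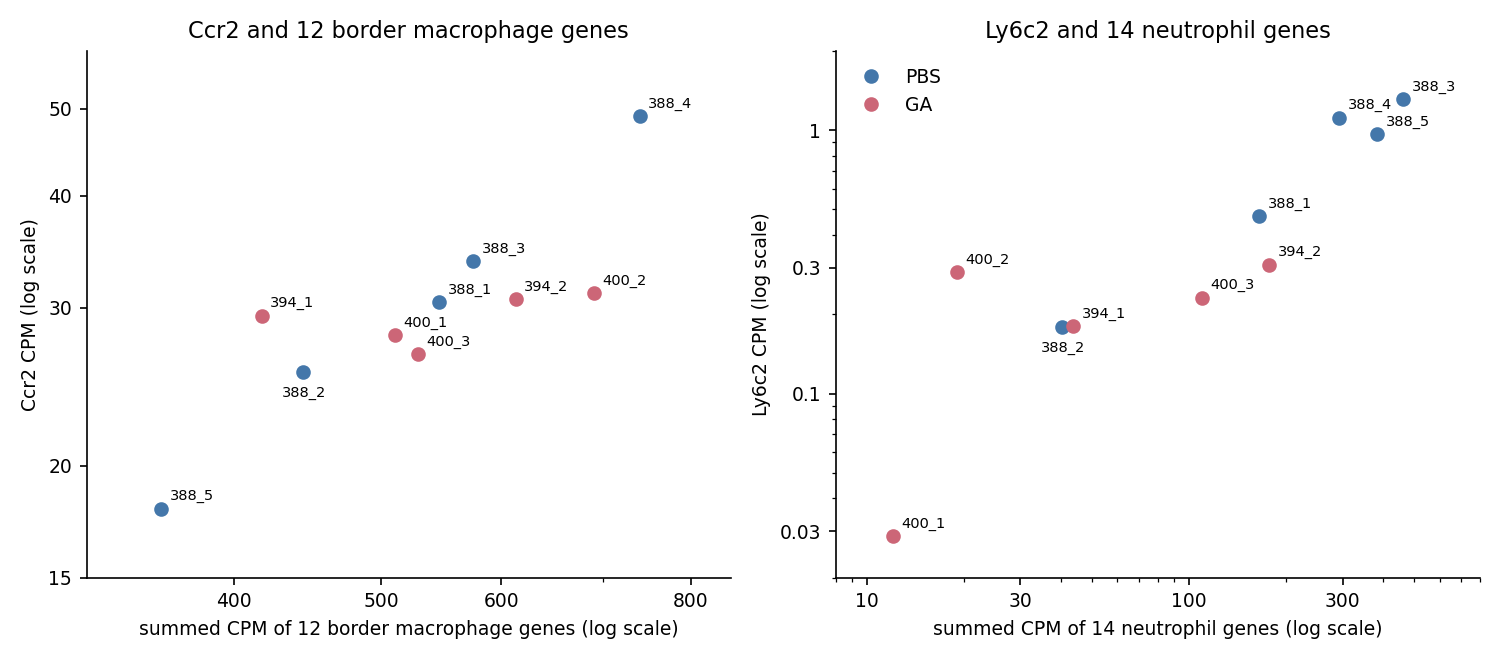
Left, *Ccr2* CPM against the summed CPM of 12 border macrophage genes. Right, *Ly6c2* CPM against the summed CPM of 14 neutrophil genes. Each point is a library (PBS blue, GA red) and all axes are on a log scale. *Ccr2* rises from 388_5 to 388_4 with the border macrophage sum, and *Ly6c2* is highest in the 3 libraries with the highest neutrophil sum.

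The microglial sum was highest in 388_5 and lowest in 388_4, the reverse of *Ccr2*. The r of *Ccr2* with the sum of 10 microglial genes was -0.799 (permutation p = 0.0069, adjusted p = 0.167). Without 388_4 and 388_5, r with the sum was -0.392.

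The genes most like *Ccr2* were *Gm35853* (r = 0.942), *Col11a2* (0.939), *Ramp2* (0.937), *Gm7666* (0.927) and *Tmem256* (0.915), and 1.04% of genes had an r over 0.8. *Ramp2* encodes a receptor chain for adrenomedullin. The first 4 had 177 to 836 reads over the 10 libraries.

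**Figure D4:**
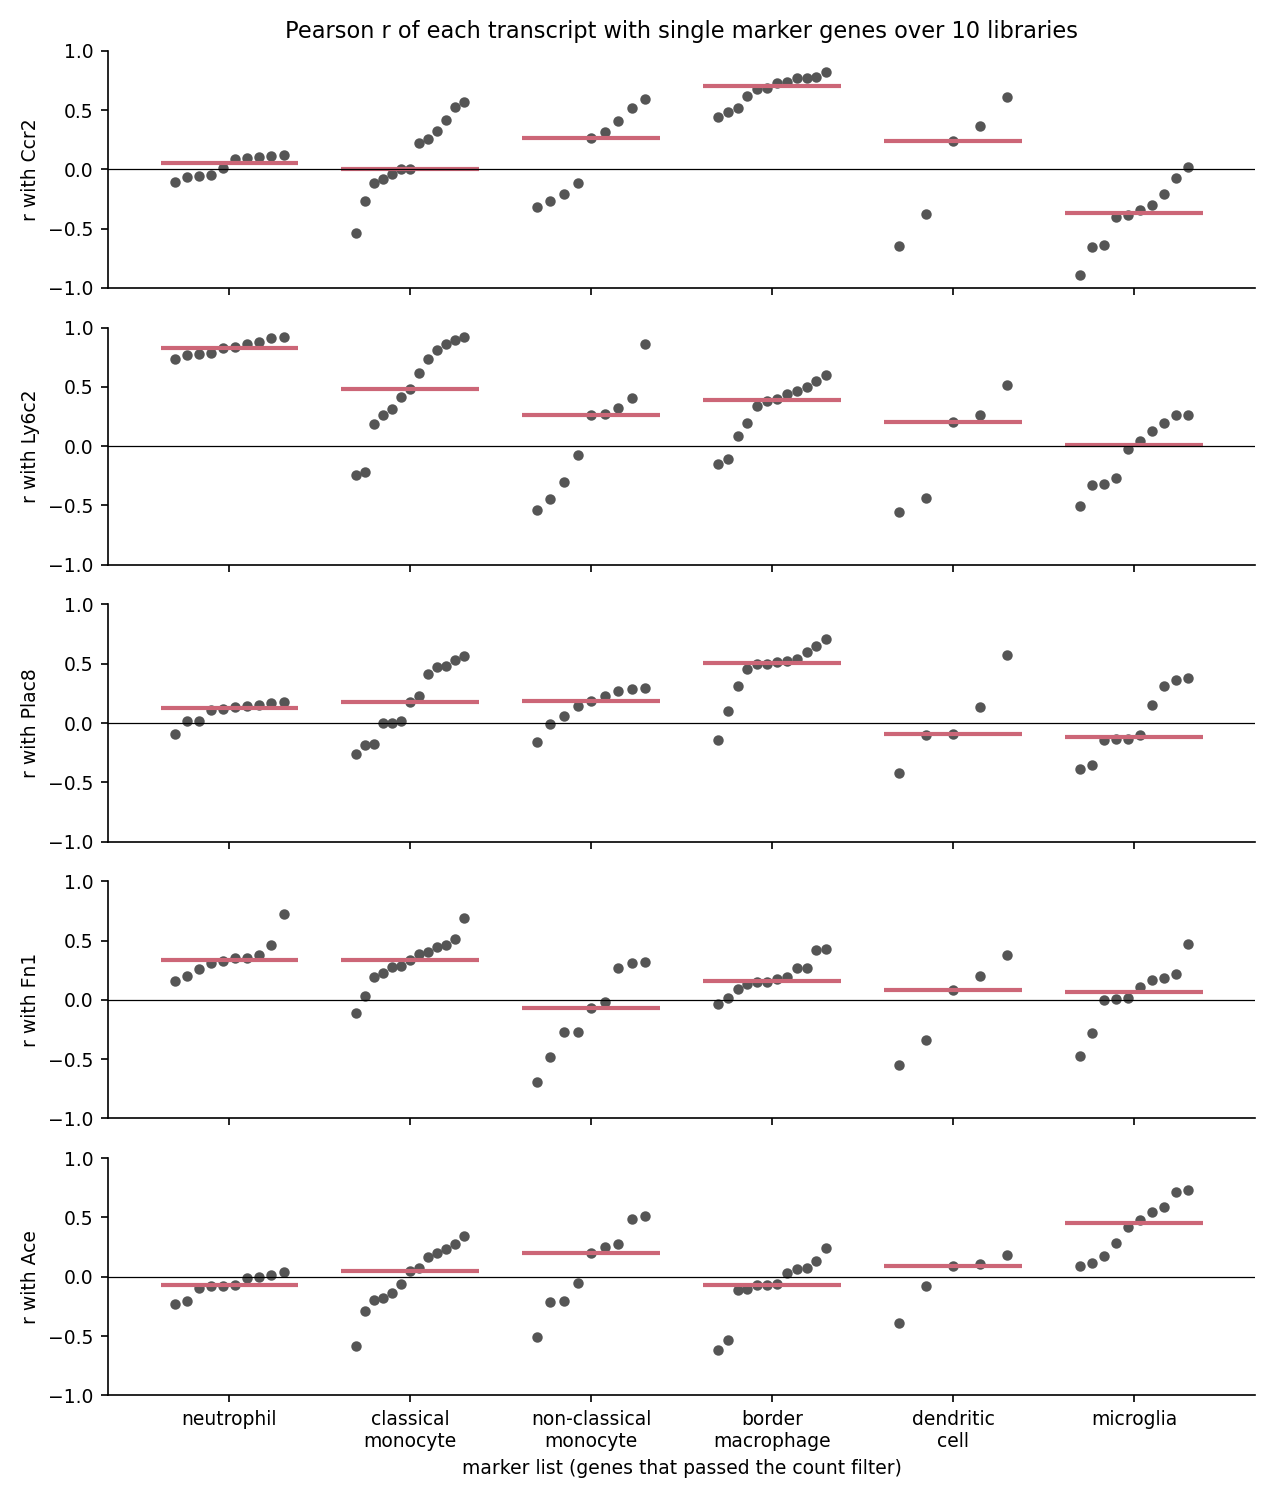
Pearson's r over 10 libraries of 5 transcripts (rows; *Vcan* is left out as it was at 0 in 6 libraries) with single marker genes of 6 lists, each point a gene that passed the count filter and each red line the median of a list. The neutrophil genes sit above 0.6 for *Ly6c2*, the border macrophage genes are the highest list for *Ccr2*, and no list reaches such medians for *Plac8*, *Fn1* or *Ace*.

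*Plac8*, *Fn1* and *Ace* had no list relation with an adjusted p under 0.2. *Plac8* had its highest r, 0.609 (permutation p = 0.0612, adjusted p = 0.425), with a sum that *Cspg4* makes up nearly alone. With the classical monocyte sum, which *Lyz2* makes up for the most part, its r was 0.513 (permutation p = 0.131, adjusted p = 0.591). The median single-gene r of that list with *Plac8* was 0.177. The genes most like it were *Prpf4* (r = 0.949), *Pttg1* (0.894), *Timeless* (0.893), *Gm4841* (0.884) and *Ccnh* (0.882), where *Prpf4* encodes a splicing factor, *Pttg1* securin, which holds sister chromatids together, and *Ccnh* cyclin H. Its r with the border macrophage sum was 0.229 (permutation p = 0.527, adjusted p = 0.957), where the single genes had a median r of 0.508.

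The list relation of *Fn1* with the smallest p was negative, an r of -0.521 (permutation p = 0.123, adjusted p = 0.591) with lymphocyte genes, which was 0.442 without 394_1 and -0.753 without 388_5. Its r was 0.473 with the sum of neuron and choroid plexus genes and 0.414 with that of endothelial genes (adjusted p = 0.654 and 0.745 in the permutation test). These values rested on single libraries: they were -0.162 and 0.0524 without 394_1, and 0.699 and 0.544 without 388_5. With the classical monocyte sum, mostly *Lyz2*, the r of *Fn1* was 0.374 (permutation p = 0.311, adjusted p = 0.775). The median single-gene r of that list with *Fn1* was 0.336. With neutrophil genes the r of *Fn1* was 0.303 (permutation p = 0.436, adjusted p = 0.923). The genes most like *Fn1* were *Gm37909* (r = 0.931), *Klrg2* (0.918), *Lypla2* (0.897), *Gm6594* (0.886) and *Slc16a7* (0.880). *Lypla2* encodes a thioesterase and *Slc16a7* a monocarboxylate transporter.

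*Ace* had an r of 0.595 (permutation p = 0.0708, adjusted p = 0.425) with the microglial sum and of -0.143 (permutation p = 0.705, adjusted p = 0.957) with that of non-classical monocytes, the blood cells known to carry it. That sum is made up mostly of *Ceacam1*, *Gngt2* and *Eno3*, and the median single-gene r of the list with *Ace* was 0.201. The microglial genes *Siglech* and *Fcrls*, chosen after their values were seen, had r of 0.733 and 0.715 with it. The relation of *Ace* with the smallest p was negative, an r of -0.729 (permutation p = 0.0172, adjusted p = 0.206) with a sum of fibroblast and pericyte genes that *Pdgfrb* makes up nearly alone. *Spn*, which encodes the CD43 of non-classical monocytes, was at 0.298 ± 0.0840 CPM in PBS and 0.673 ± 0.443 in GA (SD, n = 5). Its log2 fold change was 1.17 (SE 0.48), with an adjusted p of 0.854 by edgeR. Its r with *Ace* was 0.490, and that of *Eno3* was -0.507. Of the 9 tested genes of that list, 5 were higher in GA and 4 lower. By edgeR 2 of them had an unadjusted p under 0.05 (5.75% of all genes did), *Spn* and *Ceacam1*, the latter lower in GA. After adjustment 0 passed. The genes most like *Ace* were *Arpc2* (r = 0.925), *Bnip3* (0.916), *Arpc5* (0.905), *Slc41a1* (0.903) and *Prxl2c* (0.898), of which *Arpc2* and *Arpc5* encode subunits of the Arp2/3 actin complex.

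For *Vcan* the likeness was to its single high library. *Ptp4a3* (r = 0.906), *Basp1* (0.886), *Mbip* (0.874), *Pak4* (0.871) and *Micu3* (0.867) came nearest, over 10 libraries of which 6 had 0 reads of *Vcan*. Among markers of oligodendrocyte precursors and fibroblasts, which also make versican, *Pdgfra* had 2 reads and *Dcn* 13 in all, but *Cspg4* had 4865. These values describe 15 reads of *Vcan* and support no comparison.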

How the data were processed

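RNA-seq was performed on CD45int CD11b+ cells of 10 mouse hippocampal samples, 5 GA and 5 PBS, grouped by their treatment label. RNA was amplified with SMARTer v4 and sequenced as single-end reads without molecular identifiers, so intervals cover counting error only. The authors deposited raw counts of reads per gene; their processing notes name bcl2fastq 2.19.0, fastp 0.20.0, STAR 2.7.0f, Subread 1.6.4 with featureCounts, DESeq2 and GRCm38.p6, whereas annotation and strand setting are not given in the sources used here. The count table had 0 columns without a sample.

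Counts were filtered with filterByExpr (minimum count 10), scaled by TMM and tested with edgeR 4.0.16 in R 4.3.3; alternatives used DESeq2 1.42.0, limma 3.58.1, other scalings and filters, either GA title prefix alone, the title number as a block, and each library left out. Correlations used log2(CPM + 0.1) in Python 3.11.15 with 100000 permutations, or all 14400 within-group arrangements. Scripts were checked on simulated data. Lengths, positions and sequences came from GENCODE M21.

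The members, marker lists and tests were chosen with earlier results of these data known. Named genes were the members, the genes of the sort, in each list the 3 most abundant and the 2 with the smallest p, all genes of the Ly6, CCR2 ligand, matrix and angiotensin lists, and the 5 genes most like each member; for others the text says that they were picked with their values known. Alternatives for the marker list relations were set after seeing the data. Some genes of the lists are not reported here.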

Additional observations from a re-analysis of the deposited data

Results flagged for a closer look

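*Vcan* in PBS library 388_1 stood far from the rest of its group: it was at 0.314 CPM from 12 reads, and the other 4 PBS libraries had 0 reads. With the other 4 libraries at 0, any value above 0 would stand apart in this way. Without this library the mean log2(CPM + 0.1) of *Vcan* was higher in GA by 0.21, from single reads.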

How the results depend on the processing

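No member passed an adjusted p of 0.05 in any alternative that was run. Over all genes, the 0 calls became 2 with DESeq2 and 3 without its independent filtering and Cook cutoff, and 0 to 1 with a library left out. The number of members under 0.05 in the exact permutation test, 1, was 0 to 1 with a library left out. The number of list relations under an adjusted 0.05, 0, was 1 with library totals and 0 to 2 with a library left out. Directions changed as follows. *Plac8* was 0.28 with GA prefix 400 alone. *Ace* was -0.14 by limma-voom and -0.18 with GA prefix 400 alone. With a library left out, log2 fold changes ran from -0.24 to 0.12 for *Ccr2*, -0.26 to 0.23 for *Plac8*, -0.29 to 0.013 for *Fn1* and -0.59 to 0.89 for *Ace*. The differences of mean log2 CPM then ran from -0.21 to 0.15 for *Ccr2*, -0.26 to 0.23 for *Plac8*, -0.30 to 0.21 for *Vcan*, -0.34 to 0.024 for *Fn1* and -0.32 to 0.64 for *Ace*. The r of *Ccr2* and *Ly6c2* ran from -0.13 to 0.74 with a library left out, and that of *Ccr2* and *Fn1* from -0.54 to 0.079, with 0.098 without the 2 farthest libraries. *Ly6c2* was lower in GA in every fit that included it; the filter of 10 counts in every library removed it. With the title number as a replicate block *Plac8* was 0.25, *Ly6c2* -1.37 (adjusted p = 0.768 by edgeR) and *Ace* 1.47 (adjusted p = 0.794) in place of 0.12, with 0 genes called; samples with the same number did not vary together (r from -0.109 to 0.0438 in 5 pairs), so this fit is no paired test.

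Depth limits *Ly6c2*, *Ace* and *Vcan*: with 175, 168 and 15 reads in all, single libraries rest on 0 to 43 reads.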
